A study of Rattus norvegicus with 4 samples.

Results

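The genes described here are 9 members of the AP-1 and immediate early group: Jun, Junb, Jund, Fos, Fosl1, Fosl2, Ier2, Ier3 and Egr1. They were found by name, through the RefSeq transcript that each probe of the array was designed against, and all 9 had a probe. They were measured by 14 of 45598 gene probes, or 42 of 58717 gene spots on each array, among 16581 named genes in all. The cells were NR8383, a rat alveolar macrophage line first grown from the lung lavage of a normal rat, taken after 20 passages. All 4 cultures had received NRCWE006 for 4 h, which are multi-walled carbon nanotubes, fibres made of rolled sheets of carbon. The labels give the dose as 1 cm2/cm2. The line grows as a mix of adherent and floating cells. These 4 biological replicates make up 1 group, and each was hybridised to 1 array with the dye Cy3. The study's design also names unexposed control cultures, which were not analysed here. Whether a high or a low value below is a response to the nanotubes therefore cannot be told.

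AP-1 is a family of transcription factors that bind DNA as dimers, in which a Jun protein pairs with another Jun protein, a Fos protein or a related leucine zipper protein. Immediate early genes are transcribed within minutes of a stimulus without new protein synthesis, and many of their messenger RNAs are short-lived, so that their level often falls back within hours. In macrophages, MAP kinases switched on by microbial products, particles or stress act on AP-1, which works beside NF-kB at genes for cytokines and proteases.

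In the exposed cells, Jun, Jund and Ier2 gave signals well above background on all 4 arrays. Junb and Fosl2 did so on some arrays, and Fos, Fosl1, Ier3 and Egr1 on none. A probe was called well above background on an array when over 50% of its usable spots carried that flag of the scanner software, and a gene was detected when 1 of its probes was called on all 4 arrays. By this rule 3 of the 9 genes were detected (33.3%), beside 11.9% of all named genes with a value on every array (16419). A gene without a call was not well above background, and it may still be expressed below what these arrays resolve.

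Promoter sequence from RefSeq (build GRCr8) is given for 2 of the detected genes, Jund and Ier2, and for Egr1, a textbook immediate early gene that was not detected. It covers the 250 bases before the annotated start of the gene, 5′ to 3′ on the gene's strand. The table of promoters held 6 of the 9 genes and not Jun, Fos and Ier3. Capitals mark matches to TGACGTCA, the cyclic AMP response element (CRE) that ATF and CREB proteins bind, alone or with Jun, or to the CArG box, the site of serum response factor.
Jund, chr16:18769772-18770021, minus strand: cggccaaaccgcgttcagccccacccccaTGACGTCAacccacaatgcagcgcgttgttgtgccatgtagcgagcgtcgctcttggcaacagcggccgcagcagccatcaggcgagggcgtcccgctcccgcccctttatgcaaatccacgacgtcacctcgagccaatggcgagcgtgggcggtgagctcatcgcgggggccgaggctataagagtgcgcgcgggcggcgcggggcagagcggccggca
Ier2, chr19:40399123-40399372, plus strand: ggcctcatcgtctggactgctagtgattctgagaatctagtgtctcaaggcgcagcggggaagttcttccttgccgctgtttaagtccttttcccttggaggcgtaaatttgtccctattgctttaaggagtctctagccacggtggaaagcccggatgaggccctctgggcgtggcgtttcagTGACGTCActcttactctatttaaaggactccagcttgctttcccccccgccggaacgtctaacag
Egr1, chr18:26736828-26737077, plus strand: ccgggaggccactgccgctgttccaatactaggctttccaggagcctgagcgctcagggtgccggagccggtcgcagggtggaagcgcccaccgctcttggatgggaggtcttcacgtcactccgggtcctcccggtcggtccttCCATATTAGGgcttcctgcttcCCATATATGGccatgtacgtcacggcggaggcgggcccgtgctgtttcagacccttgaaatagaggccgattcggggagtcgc

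Both detected genes in that table had a CRE match, which began 221 bases before the start in Jund and 66 bases before it in Ier2. The promoters of Junb, Fosl1, Fosl2 and Egr1 had no such match. Over all 33469 promoters of the same length, 1.59% held TGACGTCA. Egr1 had 2 CArG box matches, beginning 105 and 83 bases before the start, where 501 of all 33469 promoters held at least 1. The AP-1 site itself, searched as TGAGTCA, was in 4.05% of all promoters and in none of the 6. All searches covered both strands, and no matches overlapped. A match is a run of letters and was not tested as a binding site.

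The arrays set the limits of every value. Replicates 1 to 4 had 5722, 4745, 4252 and 6476 probes called, and the 95th percentile of the negative control spots was a signal between 3.48 and 5.10 intensity units. Replicate 4 stood apart: 2952 probes were called on it and on no other array, against 96 to 918 on each of the others, and 656 of its gene spots were flagged as non-uniform, against 9 to 34. Values that change with it are given with and without it. Of 10 macrophage markers, 4 were detected (Lyz2, Cd68, Spi1 and Fcgr1a), beside 11.9% of all named genes. Another 5 were called on no array: Mrc1, Adgre1, Itgam, Cd14 and Csf1r, the receptor of the macrophage growth factor. Marco was called on replicate 4 alone. Of 19 markers of lymphocytes, granulocytes, fibroblasts, endothelial and lung epithelial cells, 0 were detected, beside the same 11.9%, and 17 were called on no array. The other 2 were called on replicate 4 alone: Sftpb, a surfactant protein gene of lung epithelium, with signals of 3.22, 3.02, 3.58 and 45.0, and Cdh5, an endothelial cadherin gene, with 3.30, 4.07, 3.89 and 62.8. The summed signal of the 19 markers was 79.0, 63.6, 73.3 and 201 in replicates 1 to 4. On replicate 4 this sum includes Sftpb and Cdh5, and the other markers had no call there. The median negative control spot was also higher on that array, at 4.65 against 2.98 to 3.36 on the others. The part of these markers in the high values of replicate 4 was not tested. The macrophage markers Cd68 and Spi1 were also higher there, at -2.71 against a mean of -3.80 on the other arrays for Cd68 and at -2.05 against -3.50 for Spi1, on the log2 scale of levels used below. In a whole culture, fewer cells with a transcript and less transcript per cell cannot be told apart.

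**Figure D1:**
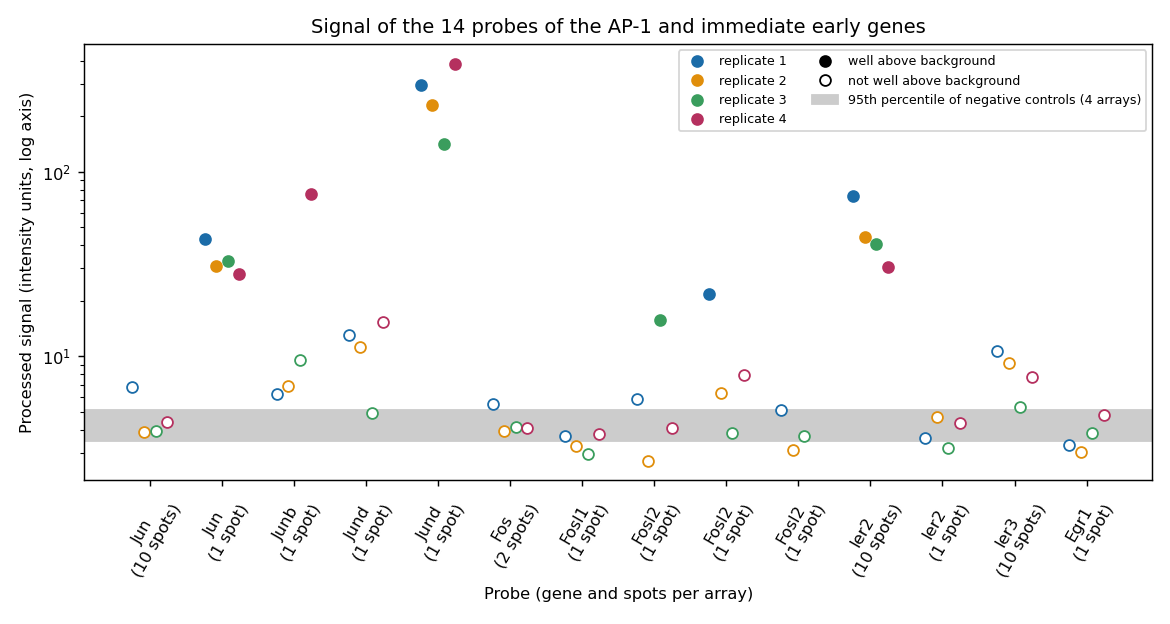
Processed signal (intensity units, log axis) of each of the 14 probes in replicates 1 to 4, with the mean over spots on the log scale where a probe was printed 2 or 10 times. Filled points were called well above background, and the grey band spans the 95th percentile of negative control spots over the 4 arrays (3.48 to 5.10). A probe each of Jun, Jund and Ier2 is filled on all arrays, while the points of Fos, Fosl1 and Egr1 are open and lie near the band.

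Among the Jun proteins, Jun is the founding member. Its probe printed 1 time per array gave signals of 43.1, 30.9, 32.9 and 27.9 in replicates 1 to 4 and was well above background in each. These signals were 5.47 to 10.8 times the 95th percentile of the negative controls of their own array. Levels are given from here on as log2 values relative to the 75th percentile of the signals of probes detected on all arrays, which was 384, 281, 236 and 223 in replicates 1 to 4. On that scale the level of Jun was -3.16, -3.18, -2.84 and -3.00, or -3.04 ± 0.16 (SD, n = 4), and no array lay apart from the rest. A level serves to compare arrays for 1 probe, and no probe's level is set against another's. The scanner software put the error of this 1 spot at 13.3% to 20.7% of its signal, which is 0.18 to 0.27 on the log2 scale, so the SD between cultures was no larger than the error of the spot.

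A second probe of the same Jun transcript was printed 10 times per array and did not pass the background test. Of its 38 usable spots, 0 were well above background. Its median signals were 7.67, 3.18, 3.90 and 4.41 in replicates 1 to 4, and its mean signal on the log scale was 0.862 to 1.70 times the 95th percentile of the negative controls. The more often measured probe thus gave no call where the single spot gave 4. Such disagreement was common: among 581 detected genes covered by several probes, 272 (46.8%) had at least 1 probe without a call on any array. Which probe follows the Jun transcript better was not tested.

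Jund, the Jun protein that is expressed in many resting cells, was measured by probes for its 2 RefSeq transcripts. The probe for NM_001286966 gave signals of 296, 229, 141 and 384 in replicates 1 to 4, which is 35.3 to 75.3 times the 95th percentile of the negative controls. The level was -0.38, -0.30, -0.74 and 0.78, or -0.16 ± 0.66 (SD, n = 4). Replicate 4 was the highest and lay 1.25 above the mean of the other 3, which had an SD of 0.24 among themselves. The software's error of these spots was 10.0% to 10.9% of the signal, or 0.14 to 0.15 on the log2 scale, so the range of 2.88-fold between arrays exceeded the error of a spot.

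The high Jund value in replicate 4 was also set against the other genes on that array. The median detected gene lay at -0.07 in replicate 4 against the other arrays, and Jund lay 1.33 above that median. Of 1946 detected genes, 3.24% had a larger difference. The value relative to the median was 1.62 after quantile normalization. It was 0.60 after the normexp background correction, which starts from median in place of processed signals and adds an offset of 50. The direction held in both, and the size moved by over 1.5 times in the latter. Before scaling, the median pixel intensity of the Jund spot net of background was 340, 246, 144 and 303 in replicates 1 to 4. By that measure replicate 4 lay below replicate 1. What made the normexp value smaller was not tested. With all gene probes as the scale, under which the median gene moved to -1.64, the level itself was lower in replicate 4 (-0.31). The Jund spot on that array had a processed signal of 1.27 times its net median pixel intensity, against 0.870, 0.930 and 0.979 on replicates 1 to 3. Of 9526 spots of detected probes on replicate 4 with a net median above 0, 2.07% had a ratio at least that high, and the part of this in the high value was not tested.

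The other Jund probe, for NM_138875, gave 13.1, 11.2, 4.91 and 15.3 and had no call on any array. All 4 of its spots did carry the software's weaker flag, which marks a signal positive and significantly above the local background. No fold change or order of arrays is given for it, since it was not well above background.

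Junb, which can oppose Jun at shared targets, was called on replicate 4 alone. Its 1 probe, printed 1 time, gave signals of 6.28, 6.91, 9.59 and 75.4. The first 3 arrays were 1.57 to 2.40 times the 95th percentile of the negative controls and replicate 4 was 14.8 times. The pixels of the spot gave a smaller step: the median pixel intensity net of background was 5.5, 9.5, 12.0 and 36.0. The processed signal of Junb in replicate 4 was thus 2.09 times its net median. Of 3011 spots of probes called on replicate 4 only, 13.0% had a ratio at least as high, and of 9526 spots of detected probes on that array, 0.0630% did.

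No fold change is given for Junb, since it was not well above background on replicates 1 to 3. Without replicate 4, it was called on no array. Sftpb and Cdh5, markers of other cell types, and the macrophage marker Marco were likewise called on replicate 4 alone. Whether culture 4 held more Junb transcript was not tested, since there was 1 spot on 1 array.

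The Fos proteins, which cannot pair with themselves and act through a Jun partner, gave little or no signal. Fos, the founding member, had a probe printed 2 times per array, and 0 of its 8 spots were well above background. Its mean signals on the log scale were 5.48, 3.95, 4.11 and 4.07, or 0.799 to 1.37 times the 95th percentile of the negative controls. Fosl1, which encodes Fra-1, gave 3.68, 3.25, 2.95 and 3.78, below that percentile on all 4 arrays.

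Fosl2, which encodes Fra-2, had 3 probes for the same transcript, and each behaved differently. The first gave 5.89, 2.72, 15.7 and 4.09 and was called in replicate 3 only. The second gave 21.6, 6.36, 3.85 and 7.94 and was called in replicate 1 only. The third gave 5.12, 3.12 and 3.69 in replicates 1 to 3. Its spot in replicate 4, with a signal of 71.8, was flagged as non-uniform and left out, and its processed signal was 2.76 times its net median intensity. No array was called by more than 1 of the 3 probes, so the calls of Fosl2 did not repeat between probes.

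The remaining members are not AP-1 subunits. Ier2 encodes a small nuclear protein induced early by growth factors. Its probe printed 10 times gave median signals of 76.6, 45.3, 42.0 and 29.9 in replicates 1 to 4, and 36 of its 38 usable spots were well above background. The spots of an array ranged from 55.8 to 94.4 in replicate 1 and from 21.0 to 42.9 in replicate 4. These arrays did not overlap in signal before scaling, where their 75th percentiles of detected probes were 384 and 223. After scaling, the level of Ier2 was -2.37, -2.66, -2.54 and -2.88, or -2.61 ± 0.21 (SD, n = 4), with replicate 4 the lowest. The single spots of 1 array had an SD of 0.20 to 0.33. The SD of 0.21 between cultures is one of means over 8 to 10 such spots. Such means vary less with spot noise than single spots do, so these SDs are not directly comparable. A second Ier2 probe, printed 1 time for the same transcript, gave 3.62, 4.66, 3.19 and 4.36 and was called on no array.

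Ier3 encodes a stress-induced protein that acts on cell survival. Its probe printed 10 times gave median signals of 14.3, 9.50, 4.61 and 6.33, and 4 of 38 usable spots were well above background, 3 of them in replicate 1. By the weaker flag, 32 of the 38 spots were positive and significant. Most spots of Ier3 thus passed the weaker flag and few passed the stronger one. Egr1, a zinc finger transcription factor switched on through serum response factor, gave 3.31, 3.01, 3.82 and 4.78. All 4 were below the 95th percentile of the negative controls of their array, at 0.828 to 0.957 times its value.

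**Figure D2:**
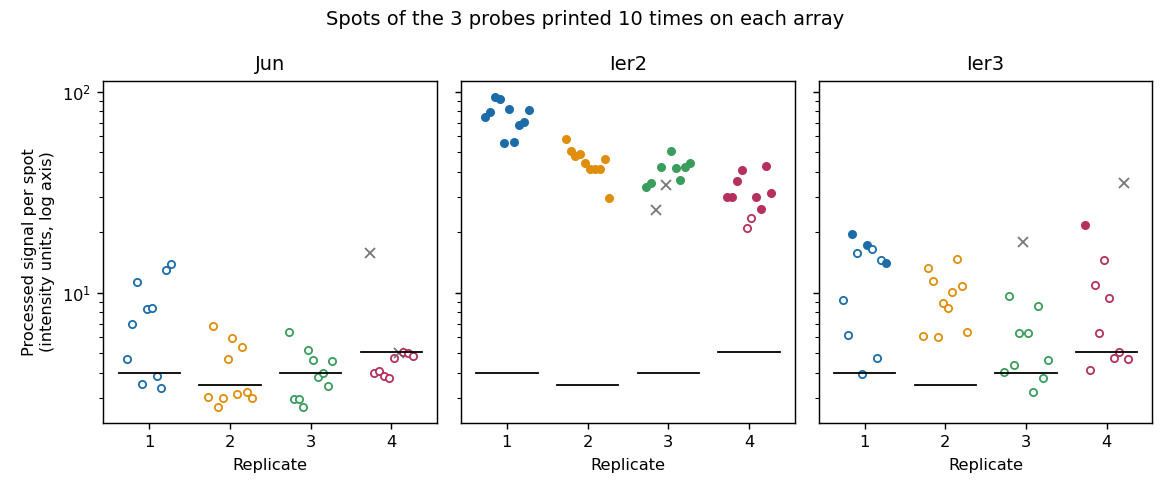
Processed signal of every spot (intensity units, log axis) of the probes of Jun, Ier2 and Ier3 printed 10 times on each array, for replicates 1 to 4. Filled points were well above background, crosses were left out as outliers, and black lines give the 95th percentile of the negative controls. Of the usable spots of each gene, 0 of 38 for Jun, 36 of 38 for Ier2 and 4 of 38 for Ier3 are filled.

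The repeated spots allowed a test between arrays. In the moderated F test of limma over 1350 probes printed 10 times, Ier2 differed between the 4 arrays (adjusted p = 0.00183), where 81.0% of all 1350 probes passed. Over the alternatives, the adjusted p of Ier2 in limma ran from 1.96e-19 with all gene probes as the scale to 0.0763 with normexp, where the call was lost. The repeated probe of Jun and that of Ier3, with 0 and 4 of 38 spots well above background, did not pass, but for them the test compares signals at or near the background. Their outcome also followed the scaling: over the alternatives the adjusted p in limma ran from 2.56e-16 to 0.632 for Jun and from 1.22e-13 to 0.584 for Ier3, and nothing is read from it. Repeats in this test are spots on 1 array, so it sets arrays against each other and not conditions.

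**Figure D3:**
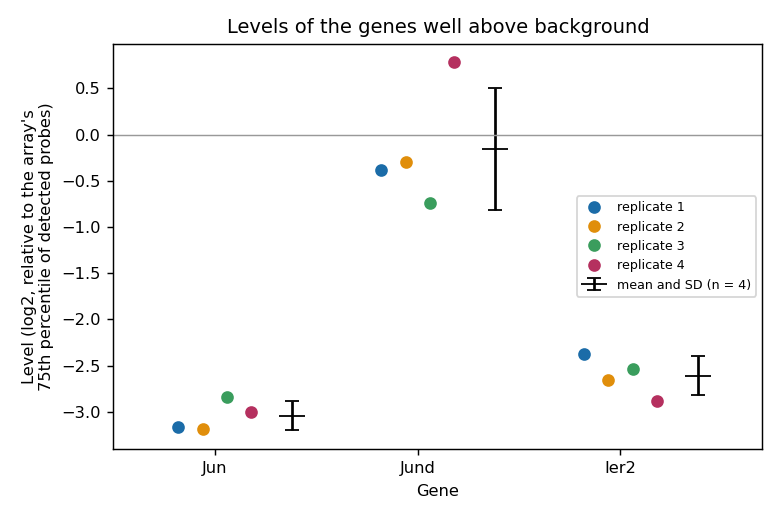
Level of Jun, Jund and Ier2 in each replicate (log2, relative to the 75th percentile of detected probes of the same array), with the mean and SD over 4 arrays in black. Jun and Ier2 stay within 0.34 and 0.50 between their lowest and highest array, and Jund spans 1.53, with replicate 4 on top. With all gene probes as the scale, replicate 4 lies 0.31 below the mean of the others for Jund, where the median detected gene lies at -1.64.

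The spread of the detected members between cultures was set beside that of all 1946 detected genes, whose median SD was 0.24, with 0.10 and 0.52 as 10th and 90th percentiles. The SD was 0.16 for Jun and 0.21 for Ier2, and 74.6% and 58.6% of the genes had a larger one. Jund had 0.66, and 4.78% had a larger one. This order depends on the scaling. With all gene probes as the scale, Jund had the lowest SD of the 3 genes, 0.36 against 0.76 for Jun and 0.97 for Ier2. The median SD of all detected genes was then 0.85, and 95.1% had a larger SD than Jund. On that scale the median gene lay at -1.64 in replicate 4 against the other arrays. Relative to the median gene, Jund lay 1.33 higher there on both scales, so its low SD is not read as steadiness. After quantile normalization the SD was 0.65 for Jund, 0.54 for Jun and 0.66 for Ier2, and 16.2% of genes exceeded Jund. Jund had the highest SD of the 3 without scaling (0.62) and with normexp (0.40). Over replicates 1 to 3 alone, the SD was 0.19 for Jun, 0.15 for Ier2 and 0.24 for Jund, beside a median of 0.17. On those arrays 29.2% of genes had a larger SD than Jund.

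**Figure D4:**
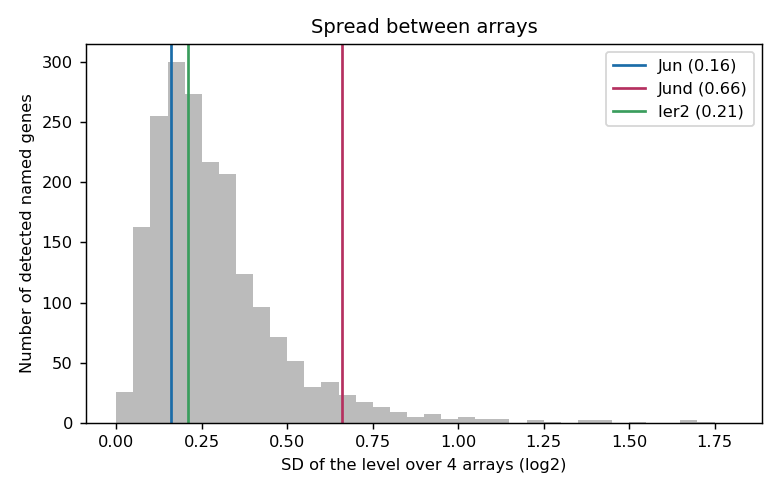
Histogram of the SD of the level over 4 arrays (log2) for 1946 detected named genes, with lines at Jun, Ier2 and Jund. On this scale Jun (0.16) and Ier2 (0.21) lie below the median of 0.24 and Jund (0.66) lies above the 90th percentile of 0.52. With all gene probes as the scale, Jund (0.36) lies below Jun (0.76) and Ier2 (0.97), and the median of all detected genes is 0.85.

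The root mean square difference between the profiles of the 3 genes, each centred on its own mean over 4 arrays, was 0.25 for Jun and Ier2, 0.60 for Jun and Jund and 0.72 for Jund and Ier2. The first of these was above the error of the single Jun spot in replicates 1 to 3 (0.18 to 0.20) and below it in replicate 4 (0.27). Among the other 1945 detected genes, the profiles nearest to Jun were those of Kcmf1 (0.022), Slc25a39 (0.023) and Ube2m (0.027). Those nearest to Jund were Tssc4 (0.032), Tprn (0.092) and Lamtor2 (0.092). Tssc4 had levels of -1.67, -1.57, -2.03 and -0.57, which is again highest in replicate 4. Nearest to Ier2 were Cebpb (0.015), Nipsnap3b (0.020) and Tpm3 (0.025). With 4 arrays and this many genes, near profiles are to be found for most patterns, and these names are a description.

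The rest of the pathway was described by 7 lists of genes. Of 89 genes with a probe, each counted 1 time, 17 were detected (19.1%, beside 11.9% of all named genes). Among possible dimer partners of Jun and Fos proteins, 3 of 13 were detected (23.1%, beside the same 11.9%). They were Jdp2, a repressor that pairs with Jun, at -2.25 ± 0.31, Atf4, the factor of the integrated stress response, at -0.95 ± 0.20, and Mafg, a small Maf protein, at -3.53 ± 0.19 (SD, n = 4). Fosb, the remaining member of the Fos family, was called on no array. Atf3, a stress-induced partner of Jun, was called on 2 arrays; it was singled out after its values were seen.

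Of the MAP kinase cascade, 6 of 18 genes were detected (33.3%, beside 11.9% of all named genes). The kinase genes Mapk3, which encodes ERK1, Mapk14, which encodes p38 alpha, and Map2k2, which encodes MEK2, had levels of -0.59 ± 0.15, -2.65 ± 0.42 and -2.71 ± 0.10 (SD, n = 4). Without replicate 4, Mapk14 had -2.46 ± 0.22 (SD, n = 3). None of 7 genes for serum response factor, its ternary complex partners and CREB proteins was detected. Of these, 1 was called on some arrays and 6 on none, Elk1 among them. None of 8 MAP kinase phosphatases, which end the signal and are themselves often immediate early genes, was detected. Here 2 were called on some arrays and 6 on none, Dusp1 among them. Beside a share of 11.9% over all named genes, lists this short can hold no detected gene, and nothing is read from either count of 0.

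Of 24 other immediate early genes, 2 were detected (8.33%, beside 11.9% of all named genes). Ier5, a relative of Ier2, had a level of -1.89 ± 0.28 (SD, n = 4). Btg1, an antiproliferative gene, had -0.55, -1.06, -0.73 and -2.74 in replicates 1 to 4, or -1.27 ± 1.00 (SD, n = 4), with replicate 4 the lowest. Without that array it had -0.78 ± 0.26 (SD, n = 3). A further 5 genes of this list were called on 1 to 3 arrays and 17 on none, Egr2 among them.

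Of the genes for turnover of Jun, 2 of 6 were detected (33.3%, beside 11.9% of all named genes), Cops5, a subunit of the COP9 signalosome, at -1.39 ± 0.32 and Cop1, a ubiquitin ligase for Jun, at -2.26 ± 0.24 (SD, n = 4). Without replicate 4, Cops5 had -1.23 ± 0.05 (SD, n = 3). Fbxw7, another ubiquitin ligase subunit for Jun, was called on no array. Of 13 textbook AP-1 target genes, 4 were detected (30.8%, beside 11.9% of all named genes). The adhesion receptor gene Cd44 had a level of -1.10 ± 0.18 and the cytokine gene Tnf -2.73 ± 0.28 (SD, n = 4). The chemokine gene Ccl2 had -2.53, -2.73, -1.74 and -0.24 in replicates 1 to 4, or -1.81 ± 1.13 (SD, n = 4). Replicate 4 was the highest, and without it Ccl2 had -2.34 ± 0.53 (SD, n = 3). The protease gene Plau was called on no array.

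**Figure D5:**
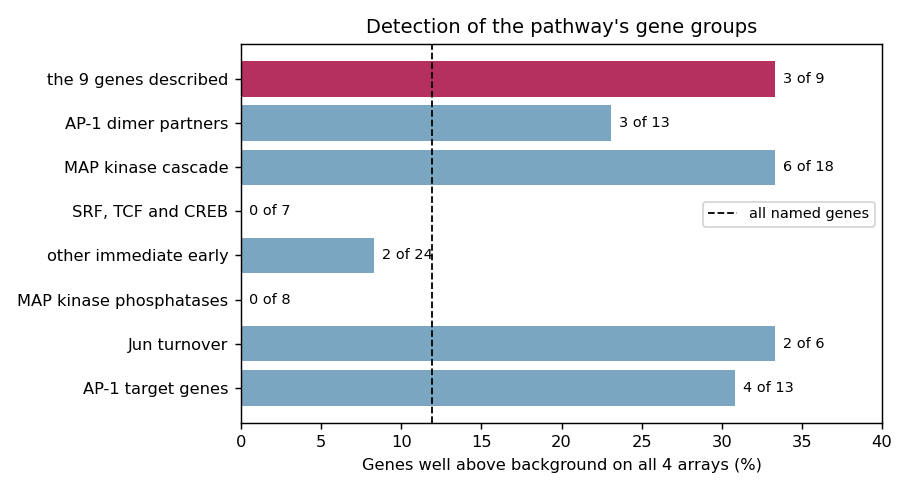
Share of genes well above background on all 4 arrays (%), for the 9 genes described and for 7 lists of the pathway, with the number detected of those with a probe beside each bar and the share of all named genes (11.9%) as a dashed line. The lists of serum response factor, ternary complex and CREB genes and of MAP kinase phosphatases have no detected gene.

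The count of detected members depended on how strict the background test was. With the weaker flag in place of the well above background flag, 6 of the 9 genes passed on all 4 arrays, beside 23.4% of the named genes. Junb, Fosl2 and Ier3 were the 3 added. Fos, Fosl1 and Egr1 did not pass on all arrays under either flag.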

How the data were processed

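Total RNA of 4 exposed cultures was labelled with Cy3 and hybridised to 1-colour Agilent arrays. Per the file headers, the deposited values are spot intensities on a linear scale. Per the submitters' processing notes, Agilent Feature Extraction version 11.0.1.1 was used, and its processed signal is the intensity after background subtraction, not scaled between arrays. Flags were used as deposited. Control spots (4259 per array) and spots flagged as non-uniform or population outliers were left out, 7 of 168 spots of the members. No gene spot was saturated.

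Probes were named by their transcript accession (version dropped) through RefSeq's GRCr8 gene table, which covered 21109 of 45598 probes. A probe's level was the mean log2 signal over its spots, set against the 75th percentile of detected probes. Where several probes of a gene were detected, the brightest was used. The F test used limma version 3.58.1 in R version 4.3.3 with Benjamini-Hochberg adjustment, and was tested on simulated data. Other steps used Python version 3.11.15, numpy version 2.4.6 and pandas version 2.3.3. The number of arrays limits the precision.

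Named were all 9 members, the first 3 detected genes and the first 1 without a call of each list in written order, and the 3 profiles nearest to each detected member. All 10 macrophage markers were also named, which was chosen after seeing the data. The members and lists were chosen with earlier results of these data known. Alternatives changed the detection rule, the scaling, the background correction, the flagged spots and the replicates. Those on replicate 4 against the others, list genes without replicate 4, the share of genes with a larger SD under each scaling and the second Jun probe were chosen after seeing the data.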

Additional observations from a re-analysis of the deposited data

Results flagged for a closer look

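In 13 member probes with a value on all arrays, the gap between the outermost array and its nearest neighbour was set against the whole range over the 4 arrays (Dixon's test at the 95% level). On the log2 scale of the levels, 0 of 13 passed it. On the linear scale, 2 of 13 did, and chance flags about 1 in 20. Junb passed with its signal of 75.4 in replicate 4, where the gap was 0.952 of the range. Fos passed with its signal of 5.48 in replicate 1, at 0.895 of the range, but this signal was not well above background. The Jund level in replicate 4 gave 0.707, below the critical value.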

How the results depend on the processing

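The 3 detected members were Jun, Jund and Ier2 also without any 1 replicate, with calls on at least 3 of 4 arrays and with all gene spots kept. Of named genes, 11.9% to 14.8% passed without 1 replicate, 15.5% with at least 3 of 4 arrays and 11.9% with all spots. The count of members was 5 with a threshold at the 95th percentile of negative controls plus 10%, which added Junb and Ier3 (21.5% of named genes passed). It was 6 with the positive and significant flag (23.4%).

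Levels follow the scale they are set on. Those of Jun, Jund and Ier2 were 2.59, 5.48 and 3.02 relative to the 75th percentile over all gene probes and 5.06, 7.94 and 5.49 without scaling. Normexp gave -1.88 for Jun and -1.66 for Ier2. Leaving out 1 replicate gave -3.04 to -2.66 for Jun, -0.10 to 0.11 for Jund and -2.69 to -2.13 for Ier2, and the detected probes that set the scale also changed. The median SD of the 3 genes was 0.21, and 0.76 with all gene probes as the scale, 0.54 without scaling and 0.65 after quantile normalization; it was 0.17 to 0.26 without 1 replicate. Without the filter on dim probes, the median SD over named genes was 0.55. Relative to the median gene, which lay at -0.36 in replicate 4 after quantile normalization, Jun turned from 0.13 to -0.67 in replicate 4 there. The cause was not tested.

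The count of 3 repeated probes that differed between arrays was 1, beside 81.0% of all 1350 probes. It was 3 with all gene probes as the scale (94.5%), without scaling (96.4%) or after quantile normalization (58.7%), and 2 with normexp (85.8%). Without 1 replicate it was 1 to 2, beside 67.8% to 77.5% of all 1350 probes. Leaving out replicate 1 added Jun (adjusted p = 0.0409 in limma). No paired analysis was possible because there is 1 group.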
